A study of Mus musculus with 16 samples.

Results

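Interferon-stimulated genes were followed in sorted mouse neutrophils as a fixed list of 45 named genes, matched by symbol to the Ensembl identifiers of the count files. All 45 were found among the 49315 genes of every one of the 24 count files. The libraries came from Ly6G+/CD11b+/CD45.2+ cells of blood and lung, taken from 8 to 12 week old male mice that were WT or carried the label aD KO (written αD KO below), a knockout of the integrin chain αD (CD11d), which is encoded by Itgad. Cells were taken from naive mice (0h) or 12 hours after cecal ligation and puncture (CLP), a surgical model of abdominal sepsis in which gut contents leak into the peritoneum, so there were 8 groups of 3 libraries. None of the 8 groups was sham-operated, so the 12h groups differ from the 0h groups by surgery, anaesthesia, analgesia and infection together. Each group held 2 samples in the labels and 3 count files; those of the first sample are named libraries 1a and 1b, and that of the second is named library 2. The counts of 1a and 1b differed by far more than sampling noise in every group (chi-square per degree of freedom 89.4 to 565.1), and the 3 files were treated as 3 libraries. The labels do not say which libraries came from separate animals, so p-values measure the spread between these libraries, which may be technical.

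Type I interferons bind a receptor made of the chains Ifnar1 and Ifnar2, and the kinases attached to it activate a transcription factor complex that includes STAT2 and IRF9. The complex switches on genes whose promoters hold the interferon-stimulated response element, while type II interferon acts through a receptor of its own and induces IRF1 and the GBP and IRG GTPases. The products block viral and bacterial growth by many routes: IFIT proteins bind foreign RNA, OAS proteins activate an RNA-degrading enzyme, ISG15 is a ubiquitin-like tag, and IFITM proteins sit in membranes and hinder viral entry. Neutrophils express much of this programme at rest, and the level is known to vary with their maturation and with infection.

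A promoter element was shared by many of these genes. The core of the response element was searched on both strands as 2 copies of GAAA separated by any 2 bases, which reads as 2 copies of TTTC from the opposite strand, in the RefSeq promoter windows of GRCm38.p6, which run from 250 bases before to 50 bases after each start. The search found a match in 20 of the 37 genes of the set that had a window (54.1%), against 3.99% of all 27025 genes with one. The palindrome TTCNNNGAA, the core of the gamma-activated site, was in 13 of the 37 (35.1%), against 9.55% of all genes. The genes that carried the largest changes at 12h fell on both sides of this search. The windows of Ifit3, Ifit3b, Gbp7 and Igtp held a match to the GAAA pair, whereas no match was present in those of Oasl2, Irf1, Ifitm1 and Ifitm6. The stretches around the matches upstream of the start are printed for 5 genes named in the results, 5′ to 3′ on the strand of the gene, with the matches in capitals.
Ifit3 (chr19:34583358-34583431, plus strand): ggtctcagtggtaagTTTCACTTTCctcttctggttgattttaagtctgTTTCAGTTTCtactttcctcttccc
Ifit3b (chr19:34607754-34607827, plus strand): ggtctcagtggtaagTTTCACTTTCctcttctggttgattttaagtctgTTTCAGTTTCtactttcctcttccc
Isg15 (chr4:156200860-156200911, minus strand): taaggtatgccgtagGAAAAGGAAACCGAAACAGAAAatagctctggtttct
Gbp7 (chr3:142530268-142530307, plus strand): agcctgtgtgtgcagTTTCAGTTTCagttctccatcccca
Igtp (chr11:58199507-58199546, plus strand): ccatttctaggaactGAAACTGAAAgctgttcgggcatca
The windows of Ifit3 and Ifit3b are shown because these neighbouring copies on chromosome 19 were the same over all 74 bases, with 2 matches each, and the Isg15 window because its 3 matches overlap. A match describes these letters only and is not evidence of binding.

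Total counts ran from 5753476 to 29984954 reads per library. The 8 libraries 1b detected 29162 to 38844 genes and the other 16 detected 17132 to 32666. The 10 highest genes took 10.4% to 16.9% of counts at 0h and 11.9% to 28.1% at 12h. Itgad itself went against the genotype labels: it was 12.5 to 101.9 CPM (counts per 1000000 counts of the library, after scaling) in the 12 αD KO libraries, as labelled, against 0.0583 to 3.66 CPM in the 12 of WT. It separated the 2 genotypes in every library, but in the direction opposite to a loss of the transcript, and genotype is therefore given below as a label. The summed level of 8 neutrophil markers was 26542 to 203013 CPM, and that of 9 monocyte and macrophage markers was 452.0 to 1696 CPM. One αD KO blood 0h library (library 2) held more lymphocyte RNA than the rest, with 400.0 CPM over 6 B cell markers and 335.1 CPM over 8 T and NK cell markers. It was also the highest of the 24 libraries for 5 plasmacytoid dendritic cell markers (85.1 CPM) and for the 9 monocyte and macrophage markers. The same held for 5 platelet markers (629.6 CPM) and 5 erythroid markers (8104 CPM). Some markers moved with the time comparisons, and many of these values stand beside the results they touch. In such bulk samples, fewer cells of a type and less RNA per cell cannot be told apart.

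In lung, 3 libraries went against their time labels. Each lung library was placed on a line from the mean of WT lung 0h (0) to that of WT lung 12h (1) with 1327 genes called between those groups, leaving out every gene of the interferon lists. Each WT lung library was left out of the mean it was placed against, and those of 0h lay at -0.04 to 0.11 and those of 12h at 0.66 (library 1b) to 1.21. Library 2 of αD KO lung 0h lay at 1.03, while its partners 1a and 1b lay at 0.15 and 0.10. Libraries 1a and 2 of αD KO lung 12h lay at 0.10 and 0.19, while library 1b lay at 0.83. Itgad followed the same division, at 17.7 CPM in αD KO lung 0h library 2 and at 82.7 and 101.9 CPM in αD KO lung 12h libraries 1a and 2, against 12.5 to 21.2 CPM in αD KO blood 12h and 50.7 to 96.4 CPM in αD KO blood 0h. Comparisons of the αD KO lung groups are given with these 3 libraries under their labels, and many values that rest on them also without them. The 3 were picked by this position, so leaving them out draws αD KO lung towards WT lung of the same time by choice.

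Ifitm3 and Ifitm1 were the most abundant of the 45 genes in WT blood 0h. Per kilobase of exon in WT blood 0h, Ifitm3 was highest with a mean of 726.9 CPM per kb, ahead of Ifitm1 (308.3 CPM per kb), Irf1 (145.7 CPM per kb) and Rtp4 (107.1 CPM per kb). Ifitm6 (92.3 CPM per kb), Ifit3 (73.3 CPM per kb), Isg15 (65.7 CPM per kb) and Oasl2 (65.6 CPM per kb) came next. Each neighbouring pair in this order overlapped in its libraries. At the other end, the antiviral GTPases Mx1 and Mx2 and the gene Ifi44 were nearly absent. Summed over the 24 libraries, Mx1 had 299 counts, Mx2 had 162 and Ifi44 had 586, and these were the genes of the set that failed the filter on low counts in some comparisons. The other 42 passed it in all 12 pairwise comparisons. In 3 of the 4 groups after CLP the order was led by Ifitm6, with a mean of 6173 CPM per kb in WT blood 12h, 4222 CPM per kb in αD KO blood 12h and 2556 CPM per kb in WT lung 12h, and Ifitm3 and Ifitm1 followed. In αD KO lung 12h, with all 3 libraries under their label, Ifitm1 (1316 CPM per kb) and Ifitm3 (1271 CPM per kb) were ahead of Ifitm6 (780.9 CPM per kb). That order rests on libraries 1a and 2, which went against their label. In CPM, the means over the 3 were 1440 for Ifitm1, 861 for Ifitm3 and 707 for Ifitm6. Library 1b alone had 2042, 1093 and 1672 CPM, with Ifitm6 above Ifitm3.

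Levels are given next for the receptor chains and for genes across the roles of the set. The mean of Ifnar1 was 194.8 ± 94.4 CPM in WT blood 0h and 223.6 ± 78.6 CPM in WT blood 12h (SD, n = 3 libraries), and that of Ifnar2 was 119.4 ± 49.8 CPM and 189.4 ± 27.8 CPM. Isg15, the ubiquitin-like modifier, had a mean of 49.7 ± 24.9 CPM in WT blood 0h, 48.0 ± 37.9 CPM in WT blood 12h, 49.9 ± 12.4 CPM in WT lung 0h and 48.7 ± 30.0 CPM in WT lung 12h. In blood libraries labelled αD KO, Isg15 had a mean of 39.4 ± 12.0 CPM at 0h and 58.3 ± 38.2 CPM at 12h. These 6 means of Isg15 lay within the spread of the libraries. Over the same 6 groups, Usp18, the protease that removes ISG15 and dampens receptor signalling, ranged over group means of 49.6 ± 19.2 CPM (αD KO blood 0h) to 76.3 ± 39.8 CPM (αD KO blood 12h). Irf7, which amplifies interferon production, ranged from 186.0 ± 138.1 CPM (WT blood 12h) to 225.2 ± 115.2 CPM (WT blood 0h). Gbp2 ranged from 36.7 ± 10.7 CPM (αD KO blood 0h) to 84.0 ± 81.0 CPM (αD KO blood 12h), and Bst2 (tetherin) from 5.08 ± 2.48 CPM (WT lung 12h) to 9.48 ± 9.08 CPM (WT blood 12h). Stat2 ranged from 40.6 ± 2.43 CPM (WT lung 0h) to 91.9 ± 23.0 CPM (αD KO blood 12h), and Ifitm3 from 442.3 ± 80.7 CPM (WT lung 0h) to 1637 ± 697.9 CPM (αD KO blood 12h). Ifit1 ranged from 44.0 ± 26.9 CPM (WT lung 12h) to 83.2 ± 80.3 CPM (αD KO blood 12h), and Rsad2, which encodes the antiviral enzyme viperin, from 111.2 ± 101.8 CPM (WT blood 12h) to 211.3 ± 54.2 CPM (WT lung 0h). In αD KO lung 0h the means rested on library 2, the library that went against its label. Gbp2 was 62.4, 39.5 and 233.7 CPM in libraries 1a, 1b and 2, Usp18 was 57.8, 23.3 and 179.1 CPM, Ifit1 was 105.9, 29.7 and 273.5 CPM, Rsad2 was 240.0, 128.6 and 533.5 CPM, and Isg15 was 62.8, 23.1 and 149.8 CPM. Without library 2 the mean fell from 111.9 to 51.0 CPM for Gbp2, from 86.7 to 40.5 CPM for Usp18, from 136.4 to 67.8 CPM for Ifit1, from 300.7 to 184.0 CPM for Rsad2 and from 78.6 to 43.0 CPM for Isg15. In αD KO lung 12h, Isg15 was 72.4, 43.3 and 102.1 CPM, and library 1b, the one in place on the time line, was the lowest. In WT lung the means of Ifnar1 were 187.8 ± 79.3 CPM at 0h and 354.8 ± 276.3 CPM at 12h, and those of Ifnar2 were 112.5 ± 30.3 CPM and 292.6 ± 150.6 CPM. In both blood comparisons of time, every 12h library of Ifnar2 was above every 0h library, as in 22.1% (WT) and 17.7% (αD KO) of all genes. Ifnar2 was called in neither.

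The set moved together from library to library. Over the 24 libraries, the median Spearman correlation of the 990 pairs of the 45 genes was 0.49, and 49.1% of the pairs were above 0.5. The median between a gene of the set and any of the 27145 genes kept was -0.18, with 9.2% of pairs above 0.5. Those genes were not matched to the set in level. In libraries 1b all genes deviated upward (medians of 0.10 to 0.88) while the set was low, so the 2 medians are not like for like. The libraries behind these correlations share depth, library type and time of sampling. With the size factors of DESeq2 (relative log expression, RLE) in place of TMM the median over the 990 pairs was 0.36, so part of the value rests on the scaling. The value for all genes was computed with TMM only. Usp18 (median correlation 0.68 with the other 44 genes), Ifit1 (0.66), Irf9, Ifi47 and Irgm1 (0.65 each) were the most typical genes. Ifi44 (-0.35), Mx1 (-0.19) and Mx2 (-0.12), which had few counts, did not follow the set, and the abundant Ifitm6 (0.14), Ifitm1 (0.15) and Oasl2 (0.24) followed it weakly.

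**Figure D1:**
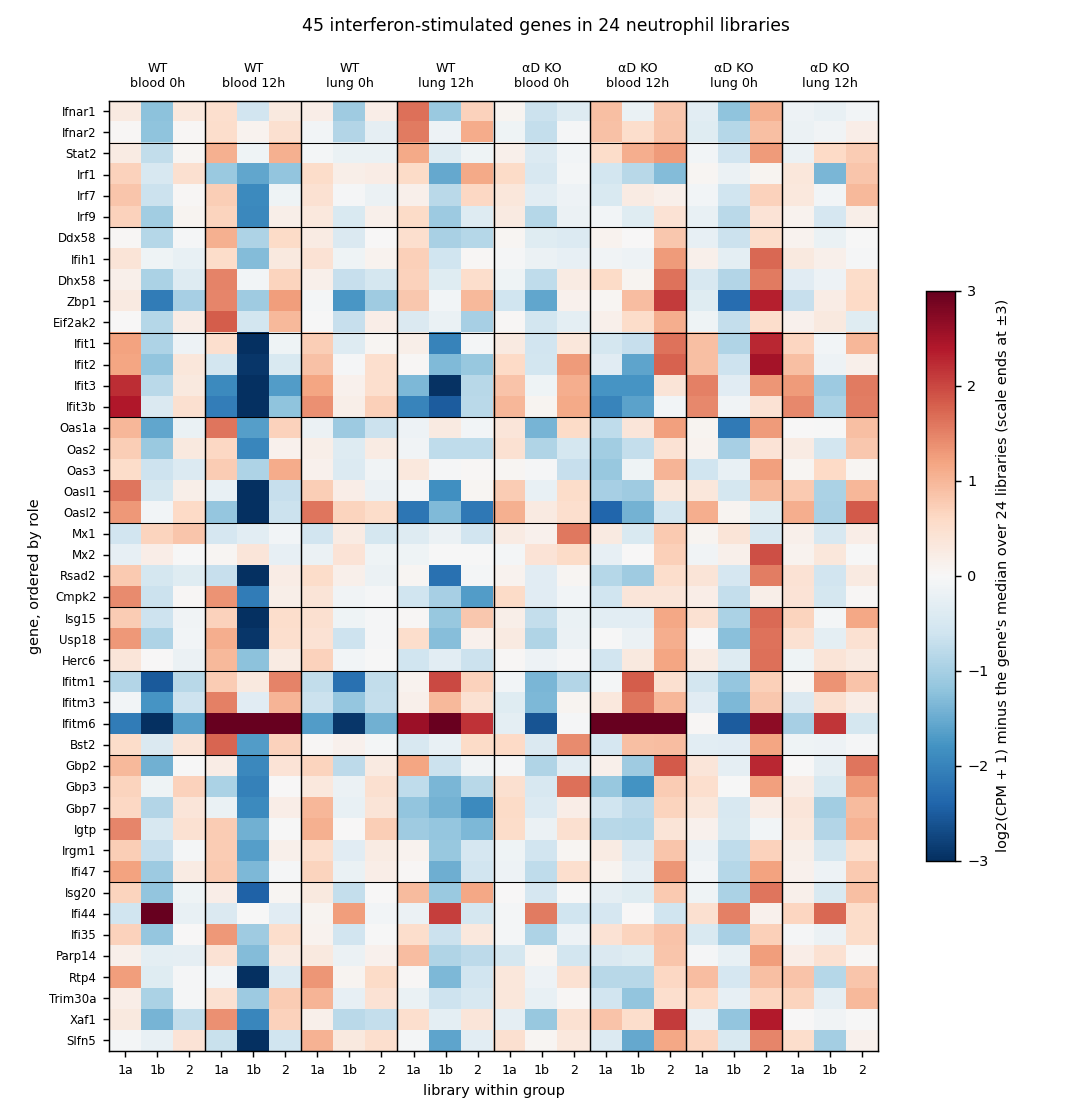
Heat map of the 45 genes (rows, ordered by role) in the 24 libraries (columns, 8 groups of 3), coloured by log2(CPM + 1) minus the median of the gene over all libraries. Whole columns are blue or red, such as WT blood 12h library 1b (41 of 45 genes below their own median) and αD KO lung 0h library 2 (42 above), while Ifitm6 is higher and Ifit3b lower at 12h in WT blood, αD KO blood and WT lung and neither separates the times in αD KO lung.

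Much of this shared variation was between libraries of one group. The set level of a library was taken as the median, over the 45 genes, of the deviation of log2 CPM from the median of each gene over the 24 libraries. It ran from -1.69 in WT blood 12h library 1b, where only Ifnar2, Mx2, Ifitm1 and Ifitm6 were above their own medians, to 1.24 in αD KO lung 0h library 2, where only Oasl2, Mx1 and Igtp were below. The set level was below 0 in all 8 libraries 1b (-1.69 to -0.19) and in 3 of the other 16 (-0.42 to 1.24). All genes together deviated the other way in the libraries 1b, with medians of 0.10 to 0.88, against -0.46 to 0.23 in the others. The contrast was smaller with RLE factors, where the set level was below 0 in 7 of the 8 libraries 1b (-1.55 to 0.18) and in 7 of the other 16 (-0.76 to 0.93). The part of the larger number of genes detected in the libraries 1b in this pattern was not tested. Library 2 of αD KO blood 12h stood high as well, at 0.85 with 41 genes above their medians, and the 4 below were Irf1, Ifit3b, Oasl2 and Ifi44.

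**Figure D2:**
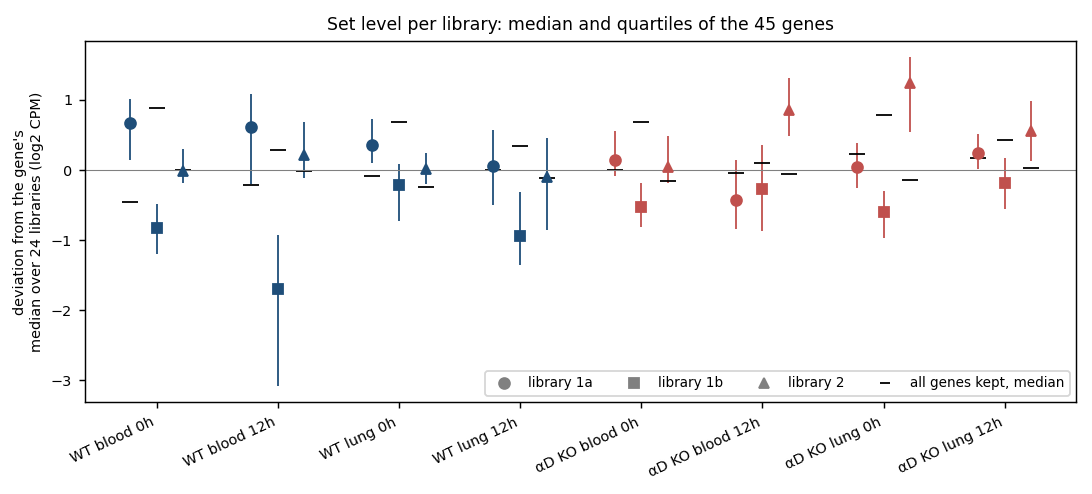
Set level of each library on the log2 CPM scale (symbol, median over the 45 genes; line, lower to upper quartile) beside the median over all genes kept (black dash), by group with WT in blue and αD KO in red. The squares, libraries 1b, are all below 0 (-1.69 to -0.19) while the dashes beside them are above 0 (0.10 to 0.88), both with TMM scaling; with RLE factors 7 of the 8 squares would be below 0 (-1.55 to 0.18).

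The first comparison asked how the set differed in WT blood neutrophils 12h after CLP. Genes were tested with the edgeR quasi-likelihood test and called differentially expressed (DEGs) where the adjusted p was below 0.05 and the log2 fold change exceeded 1 in size. Of the 42 genes of the set that passed the filter on low counts, 4 were DEGs, 2 higher and 2 lower, where 13.5% of all 14625 genes tested were DEGs (7.75% higher, 5.75% lower). The median change of the 42 was -0.33 on the log2 scale, against -0.15 for all genes. In 3 genes every 12h library was above every 0h library, where 22.1% of all genes were so placed, and in 5 every one was below, where 12.6% were. With the replicate number as a block, 11 of the set were DEGs (4 higher, 7 lower), where 18.4% of all genes were.

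Ifitm6, an IFITM family gene expressed in myeloid cells (chromosome 7, 141015699 to 141017924), was 87.1, 44.1 and 119.4 CPM in the WT blood 0h libraries and 6868, 4079 and 5814 CPM in the WT blood 12h libraries. The groups were far apart, and Ifitm6 rose by 5.88 ± 0.51 on the log2 scale (log2 fold change ± SE, adjusted p = 0.00166, edgeR). Ifitm1 (chromosome 7, 140967221 to 140969825) was 430.5, 138.1 and 443.3 CPM at 0h and 1352, 972.4 and 2230 CPM at 12h. It rose by 1.99 ± 0.49 (adjusted p = 0.0343, edgeR). Ifitm3, the best known antiviral gene of the family, was 230.8 to 741.6 CPM at 0h and 620.6 to 2220 CPM at 12h, and its libraries overlapped.

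The transcription factor gene Irf1 (chromosome 11, 53770014 to 53778374) was 753.8, 334.3 and 650.1 CPM in WT blood 0h and 214.0, 157.6 and 202.5 CPM in WT blood 12h. Every 12h library was below every 0h library, and Irf1 fell by 1.78 on the log2 scale (SE 0.34, adjusted p = 0.0166, edgeR). Ifit3b (chromosome 19, 34607970 to 34613401) was 204.9, 27.8 and 53.6 CPM at 0h and 8.34, 1.15 and 15.9 CPM at 12h. It fell by 3.75 (SE 0.97, adjusted p = 0.0414, edgeR). Its neighbour Ifit3 (chromosome 19, 34583531 to 34588731) had the values 277.4, 33.4 and 72.9 CPM at 0h and 14.9, 0.953 and 17.8 CPM at 12h, a log2 fold change of -3.77 ± 1.05 with an adjusted p of 0.0526. Ifit3 and Ifit3b are near copies and only uniquely mapped reads were counted, so the split of reads between them is uncertain. The 4 IFIT genes had a median change of -2.73, the 4 IFITM and tetherin genes one of 1.68, and the 5 nucleic acid sensors one of 0.96, with none of the sensors a DEG.

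Marker levels differed between the same libraries. The summed neutrophil markers were 26542 to 45954 CPM in WT blood 0h and 106802 to 203013 CPM in WT blood 12h, and the 5 platelet markers were 39.6 to 122.3 CPM and 5.98 to 28.6 CPM, without overlap in either sum. Single neutrophil markers went both ways: in 6 of the 8, S100a8 and S100a9 among them, every 12h library was above every 0h library, and Csf3r was lower without overlap (4336 to 11359 CPM at 0h, 1019 to 2604 CPM at 12h). The 9 monocyte and macrophage markers summed to overlapping levels (452.0 to 1243 CPM and 541.2 to 1054 CPM), with 2 of the 9 higher without overlap, Ly6c2 among them (49.4 to 135.5 CPM and 439.3 to 837.8 CPM), and 3 lower, Csf1r, the receptor of a monocyte growth factor, among them (302.6 to 835.0 CPM and 83.1 to 216.1 CPM). Of the 5 plasmacytoid dendritic cell markers, Siglech was lower without overlap (2.4 to 6.74 CPM and 0.0 to 0.953 CPM). So were 3 of the 8 T and NK cell markers, and none on these 2 lists was higher. The part of these markers in the changes of the set was not tested.

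When 1 library was left out, the share of genes called moved in the set and over all genes. The count of DEGs was 0 without WT blood 0h library 2 (0.255% of all genes called), WT blood 12h library 1a (0.102%) or WT blood 12h library 2 (0.00999%), and 1 without WT blood 0h library 1a (0.811%). It was 5 without WT blood 0h library 1b (18.4%) or WT blood 12h library 1b (9.9%). The log2 fold change of Ifitm6 was 5.64 to 6.29 in these fits and that of Irf1 was -1.99 to -1.54. DESeq2 called 7 genes, adding Ifit3, Oasl2 and Ifitm3 to the 4, where it called 22.8% of all genes.

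**Figure D3:**
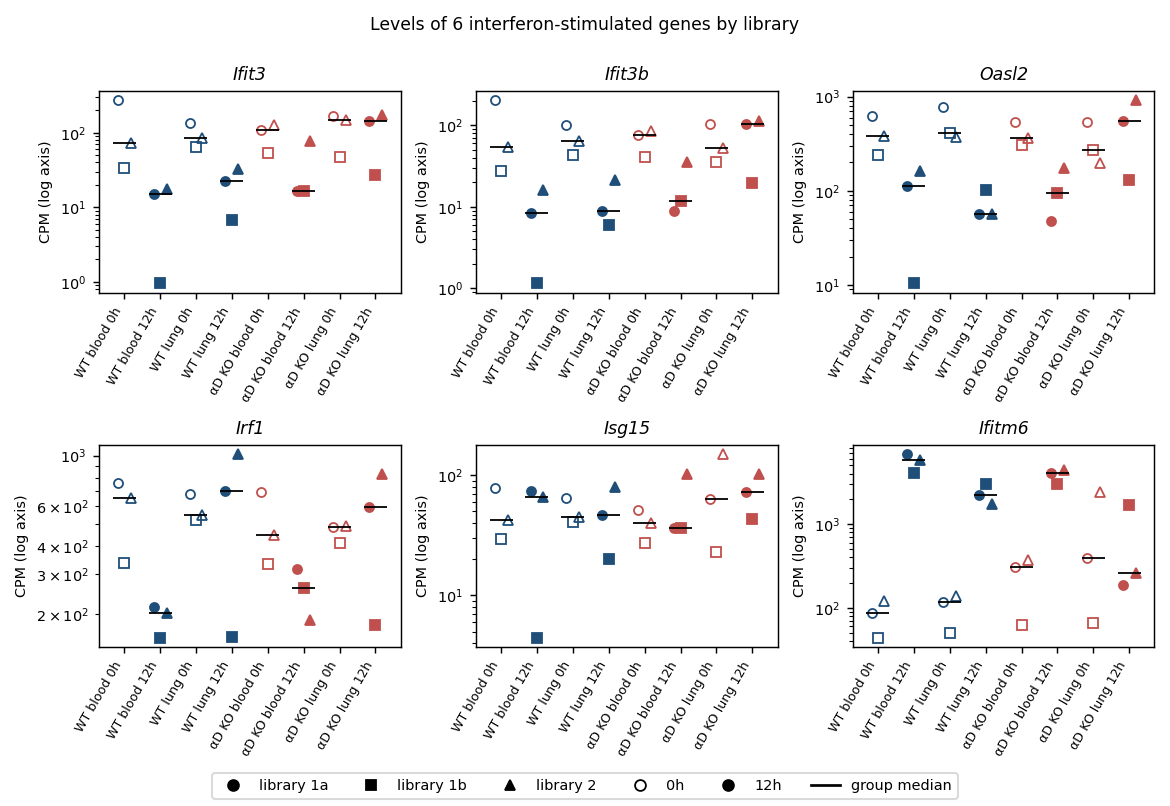
CPM on a log axis of 6 genes of the set in the 24 libraries by group, with WT in blue, αD KO in red, open symbols for 0h, filled for 12h, symbol shapes for libraries 1a, 1b and 2 and bars for group medians. Ifitm6 is higher in every 12h library of blood (3015 to 6868 CPM) than in every 0h library of blood (44.1 to 368.2 CPM), and in αD KO lung the 2 times overlap for all 6 genes.

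Blood libraries labelled αD KO were compared between the same times. Of the 44 genes tested, 3 were DEGs (1 higher, 2 lower), where 8.75% of all 14156 genes were (3.75% higher, 4.99% lower). The median change of the set was 0.14, against -0.14 for all genes. In 8 genes every 12h library was above every 0h library (17.7% of all genes) and in 3 every one was below (14.5% of all genes). With total counts and no scaling factors the median of the set was -0.25, so its direction depends on the scaling. Other settings ended calls: none of the set was a DEG with all 8 groups in 1 fit (0.236% of all genes), and Ifitm6 was the DEG left with the files of sample 1 summed (3.84%) or without the libraries 1b (11%).

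Ifitm6 was 309.2, 62.0 and 368.2 CPM in αD KO blood 0h and 4082, 3015 and 4366 CPM in αD KO blood 12h, and it rose by 3.81 ± 0.56 (adjusted p = 0.00844, edgeR). Oasl2, a member of the OAS family (chromosome 5, 114896936 to 114912234), was 540.5, 308.1 and 364.3 CPM at 0h and 48.3, 95.2 and 173.2 CPM at 12h. It fell by 2.15 on the log2 scale (SE 0.46, adjusted p = 0.0295, edgeR). Ifit3b was 76.8, 40.7 and 84.7 CPM at 0h and 8.92, 11.9 and 35.7 CPM at 12h, and it fell by 2.05 (SE 0.51, adjusted p = 0.0458, edgeR). In all 3 genes the libraries of the 2 times did not overlap. Irf1 also had every 12h library below every 0h library (188.0 to 317.1 CPM against 332.2 to 691.4 CPM), with a log2 fold change of -1.13 ± 0.33 and an adjusted p of 0.0672. Ifnar2 was 87.6 to 142.9 CPM at 0h and 210.1 to 270.0 CPM at 12h, with a log2 fold change of 0.82 ± 0.24 and an adjusted p of 0.0715. The summed neutrophil markers were 31929 to 55370 CPM in αD KO blood 0h and 118756 to 144041 CPM in αD KO blood 12h, with 4 of the 8 higher without overlap and Csf3r lower (5385 to 10345 CPM and 886.2 to 2094 CPM). The monocyte and macrophage markers summed to 613.3 to 1696 CPM and 586.6 to 727.6 CPM, with Ly6c2 higher without overlap (49.5 to 356.8 CPM and 454.5 to 526.7 CPM) and 3 lower, Csf1r among them (462.7 to 686.5 CPM and 104.5 to 153.5 CPM). The platelet markers were 543.3, 24.3 and 629.6 CPM at 0h and 37.8, 4.21 and 45 CPM at 12h, high in 0h libraries 1a and 2. Lower without overlap were 3 of the 5 plasmacytoid dendritic cell markers, 3 of the 8 T and NK cell markers and 2 of the 6 B cell markers. None on these lists was higher without overlap. The part of these markers in the changes was not tested. When 1 library was left out, no gene was called without αD KO blood 0h library 1a (0.456% of all genes called), Ifit3 and Ifit3b but not Ifitm6 without αD KO blood 12h library 2 (0.973%), and Ifitm6 alone without any of the other 4 (1.54% to 8.74%). Oasl2 was called in none of these 6 fits, where its log2 fold change was -2.61 to -1.74, and that of Ifitm6 was 3.39 to 4.25.

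In WT lung neutrophils, more genes of the set were lower at 12h. Of the 43 genes tested, 6 were DEGs (1 higher, 5 lower), where 9.02% of all 14859 genes were (5.24% higher, 3.78% lower). The median change of the set was -0.20, against 0.03 for all genes, and 28 of the 43 were below 0. In 10 of the 43 every 12h library was below every 0h library, where 16.3% of all genes were so placed, and in 4 every 12h library was above, where 12.2% of all genes were. Total counts without scaling factors moved the median of all genes by -0.59 in this comparison, that of the set to -0.82, and the count of DEGs to 17 (1 higher, 16 lower). With all 8 groups in 1 fit, Ifitm6 was the one DEG of the set, where 1.65% of all genes were.

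Oasl2 was 776.4, 406.5 and 372.7 CPM in WT lung 0h and 56.2, 101.5 and 57.1 CPM in WT lung 12h. It fell by 2.77 (SE 0.54, adjusted p = 0.0232, edgeR). Ifit3b was 99.6, 43.5 and 63.5 CPM at 0h and 8.88, 5.92 and 21.2 CPM at 12h, and it fell by 2.61 (SE 0.48, adjusted p = 0.0191, edgeR). Ifit3 moved with its neighbour, from 136.3, 64.5 and 84.6 CPM to 22.5, 6.72 and 32.9 CPM, and fell by 2.33 (SE 0.49, adjusted p = 0.0274, edgeR).

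The 2 GTPase genes called belong to families induced mainly by type II interferon. Igtp, which encodes an IRG GTPase (chromosome 11, 58199556 to 58207591), was 115.2, 55.1 and 92.0 CPM in WT lung 0h and 25.6, 23.7 and 20.7 CPM in WT lung 12h. It fell by 1.90 (SE 0.36, adjusted p = 0.0214, edgeR). Gbp7, a guanylate-binding protein gene (chromosome 3, 142530342 to 142550149), was 125.8, 53.1 and 81.3 CPM at 0h and 26.8, 22.7 and 15.9 CPM at 12h, and it fell by 1.98 (SE 0.41, adjusted p = 0.0274, edgeR). Igtp overlaps Irgm2 on the same strand and Gbp7 overlaps Gm43802, and whether shared reads were counted is not stated. The 6 genes of the GBP and IRG group had a median change of -1.25.

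Ifitm6 was the gene of the set called higher in WT lung. It was 117.2, 49.3 and 137.6 CPM at 0h and 2240, 2983 and 1718 CPM at 12h, and it rose by 4.58 ± 0.62 (adjusted p = 0.00783, edgeR). Irf1 did not follow its pattern in blood: it was 680.0, 521.1 and 546.9 CPM in WT lung 0h and 695.6, 158.7 and 1017 CPM in WT lung 12h. The summed neutrophil markers were 33786 to 48444 CPM in WT lung 0h and 77106 to 135830 CPM in WT lung 12h, with 6 of the 8 higher without overlap and 2 lower, Csf3r (6861 to 11349 CPM and 1537 to 3674 CPM) and Cxcr2 (2031 to 4521 CPM and 1410 to 1614 CPM). The monocyte and macrophage markers summed to overlapping levels (607.4 to 1014 CPM and 561.2 to 886.9 CPM), with Ly6c2 higher without overlap (69.2 to 99.3 CPM and 304.0 to 683.0 CPM) and 2 lower, Csf1r among them (443.6 to 717.9 CPM and 151.0 to 233.1 CPM). The 6 B cell markers summed to 28.7 to 48.6 CPM and 6.2 to 13.7 CPM. Of the 8 T and NK cell markers, 3 were lower without overlap and none was higher. The part of these markers in the changes was not tested. The count of DEGs was 0 without WT lung 0h library 1a, WT lung 0h library 2 or WT lung 12h library 1a (0.0% of all genes called in each) and without WT lung 12h library 2 (0.122%). It was 6 without WT lung 0h library 1b (5.03%) and 15 without WT lung 12h library 1b (25.3%). The log2 fold change of Oasl2 was -3.51 to -2.4 in these fits and that of Ifitm6 was 3.99 to 4.77. DESeq2 called 15, among them all 6, where it called 17.6% of all genes.

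**Figure D4:**
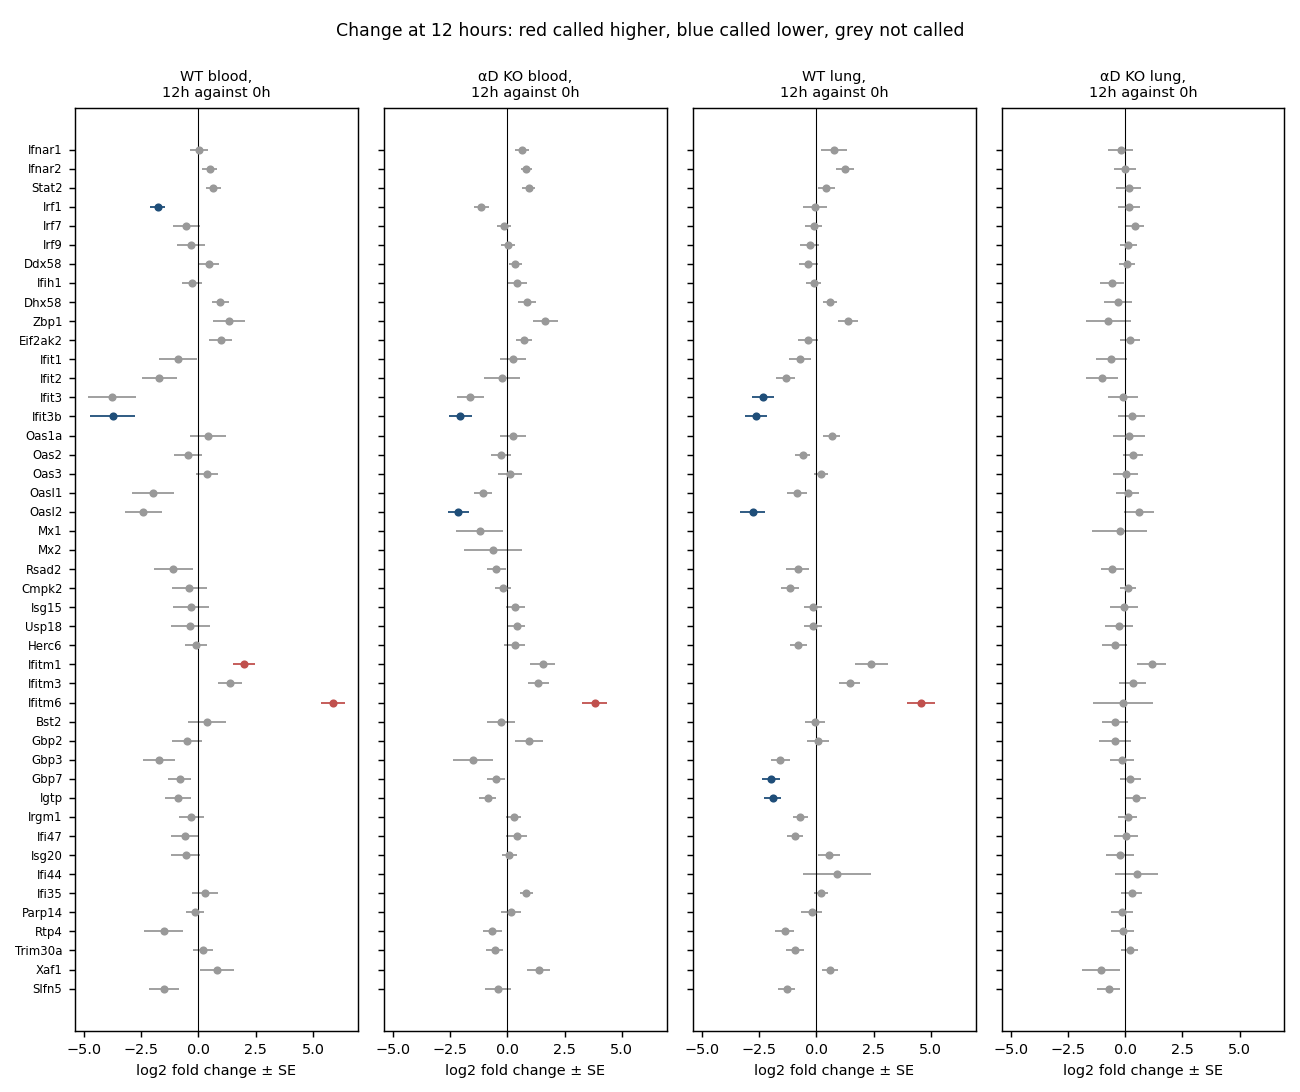
Log2 fold change ± SE from 0h to 12h of each gene of the set that was tested, in blood and lung libraries labelled WT and αD KO (edgeR). Red points are called higher (2 in WT blood, 1 in αD KO blood, 1 in WT lung), blue points lower (2, 2 and 5), grey points not called, and in αD KO lung all points are grey.

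The 3 comparisons with DEGs used separate libraries and can be set side by side. Same-numbered libraries were correlated in their deviations between some of these groups, such as αD KO and WT blood 0h (0.234 to 0.748). The comparisons are therefore not fully independent. Ifitm6 was called higher in all 3, as were 2.12% of the 12903 genes tested in all 3, and Ifit3b lower, as were 1.89%. When 1 library was left out, the call of Ifit3b was lost in 5 of 6 fits in WT blood, 4 of 6 in WT lung and 5 of 6 in αD KO blood, and that of Ifitm6 in 3, 4 and 2 of 6. Of the 42 genes of the set tested in all 3, 2 were called higher in at least 1 (Ifitm6 and Ifitm1), where 11.5% of all genes were, and 6 lower (Ifit3b, Ifit3, Oasl2, Irf1, Igtp and Gbp7), where 9.31% were. The fitted change had the same sign in all 3 for 27 of the 42 (64.3%), a share near that of all genes (64.8%), with 12 higher and 15 lower. Isg15, with log2 fold changes of -0.33, -0.15 and 0.34 in WT blood, WT lung and αD KO blood, was not called in any.

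In lung libraries labelled αD KO, none of the 44 genes tested was a DEG at 12h, where 0.0% of all 17939 genes were. None had an unadjusted p under 0.05, and DESeq2 called none. In no gene of the set did the libraries of the 2 times separate, where 0.942% of all genes had every 12h library above and 1.93% every one below. The median change of the set was 0.01, against -0.05 for all genes. The 5 genes of smallest p were Ifitm1 (log2 fold change 1.15 ± 0.63), Ifit2 (-1.01 ± 0.69), Slfn5 (-0.71 ± 0.50), Xaf1 (-1.05 ± 0.82) and Igtp (0.47 ± 0.42), each with an adjusted p of 1.0 (edgeR).

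Ifitm6 was 388.8, 66.0 and 2445 CPM in αD KO lung 0h and 187.9, 1672 and 260.4 CPM in αD KO lung 12h. The high values were in library 2 of 0h (position 1.03) and library 1b of 12h (position 0.83). Oasl2 was 541.8, 271.9 and 199.4 CPM at 0h and 545.1, 130.4 and 924.3 CPM at 12h, with the low values in those same libraries. Ifit3 was 170.3, 46.7 and 151.0 CPM at 0h and 144.6, 27.5 and 175.4 CPM at 12h, so library 2 of 0h was not low for it. Without the 3 libraries that went against their labels, 2 libraries of 0h stood against 1 of 12h, and the lone library was assumed to vary like the others. These libraries were left out for their position between the WT times, which favours a difference between 0h and 12h, so the values are a description and no test. The log2 fold change was then 2.93 for Ifitm6, which met the thresholds as did 1.41% of all genes, -1.92 for Ifit3, -1.79 for Ifit3b and -1.57 for Oasl2.

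**Figure D5:**
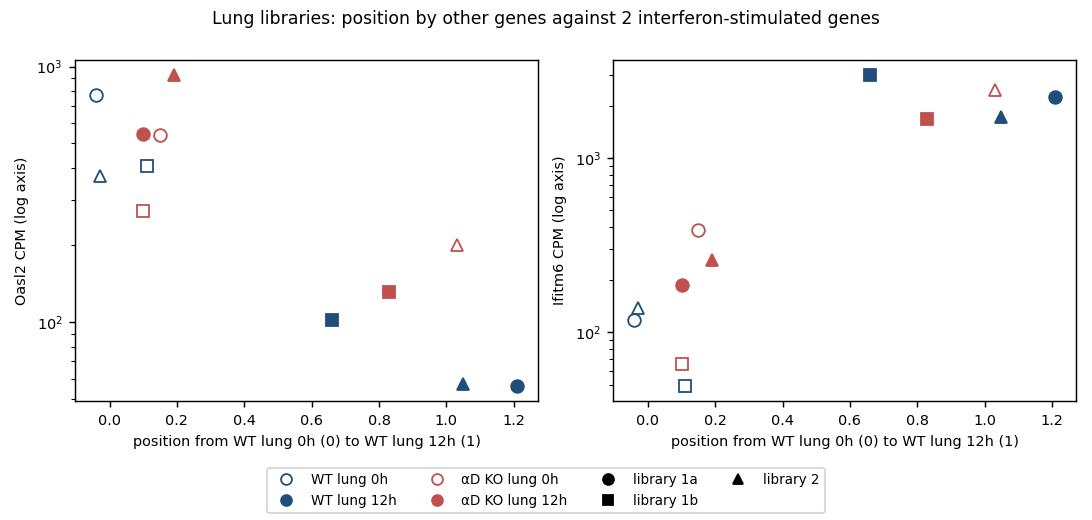
CPM of Oasl2 and Ifitm6 (log axes) in the 12 lung libraries against the position of each library between WT lung 0h (0) and WT lung 12h (1) by 1327 genes outside the interferon lists, with WT in blue, αD KO in red, open symbols for 0h and filled for 12h. The open red triangle at 1.03 has 2445 CPM of Ifitm6, and the filled red circle and triangle at 0.10 and 0.19 have 187.9 and 260.4 CPM.

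The genotype labels were compared within each tissue and time. Each of these comparisons shares its libraries with a time comparison above, so the values are not independent of those. In blood at 0h, none of the 45 genes was a DEG, where 0.0115% of all 17356 genes were. The median was -0.14 in libraries labelled αD KO over WT, against -0.01 for all genes. By edgeR 1 gene had an unadjusted p under 0.05, as had 0.709% of all genes, and DESeq2 called none. The libraries of the 2 labels overlapped in every gene of the set, where 1.85% of all genes had every αD KO library above and 1.14% every one below. Ifitm6 was 309.2, 62.0 and 368.2 CPM in libraries labelled αD KO and 87.1, 44.1 and 119.4 CPM in WT, a log2 fold change of 1.51 ± 0.57 with an adjusted p of 1.0 (edgeR). Ifitm1 (0.58 ± 0.42), Usp18 (-0.58 ± 0.49), Isg15 (-0.34 ± 0.32) and Trim30a (0.27 ± 0.25) were next.

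In blood at 12h, none of the 42 genes tested was a DEG (0.0% of all 12596 genes), none had an unadjusted p under 0.05, and DESeq2 called none. The median of the set was 0.31, against 0.03 for all genes, and 32 of the 42 were above 0. It was -0.15 to 0.69 when 1 library was left out, so its sign rested on single libraries. Ifitm6 (log2 fold change -0.54 ± 0.26), Ifit3 (1.79 ± 0.90), Ifit2 (1.70 ± 0.91), Ifnar2 (0.38 ± 0.22) and Slfn5 (1.36 ± 0.81) had the smallest p, with adjusted p of 0.962 each (edgeR). In Ifnar2 every library labelled αD KO was above every WT library, where 3.37% of all genes were so placed, and in no gene of the set was every one below, where 4.55% were. The lowest value of Ifit3 was 0.953 CPM in WT blood 12h library 1b, and the highest was 77.5 CPM in αD KO blood 12h library 2. The interaction of genotype and time in blood called none of the 45 genes (0.0% of all 19792 genes), with 1 at an unadjusted p under 0.05 (1.17% of all genes) and none by DESeq2. The difference of changes was -2.0 ± 0.87 for Ifitm6, 2.24 ± 1.33 for Ifit3, 1.79 ± 1.20 for Ifit3b, 1.56 ± 1.08 for Gbp2 and 1.14 ± 0.92 for Ifi47, with an adjusted p of 1.0 each (edgeR).

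In lung at 0h, none of the 44 genes tested was a DEG (0.0% of all 18232 genes), 2 had an unadjusted p under 0.05, as had 1.86% of all genes, and DESeq2 called none. The median of the set was 0.38, against 0.17 for all genes. Without αD KO lung 0h library 2, the library that went against its label, the median was -0.23. Library 2 was left out for its position, which favours a smaller difference from WT lung 0h. Ifitm6 had a log2 fold change of 3.12 ± 1.12 and Igtp one of -0.79 ± 0.31, both with an adjusted p of 0.983 (edgeR), and in Irf1 alone every library labelled αD KO was below every WT library, where 4.71% of all genes were so placed, and in no gene was every one above, where 2.11% were. Ifitm1 (0.93 ± 0.53), Xaf1 (1.45 ± 0.84) and Zbp1 (1.73 ± 1.02) followed. Without library 2 the log2 fold change of Ifitm6 was 1.24 and that of Igtp -0.76 (adjusted p of 0.963 each, edgeR), and those of Ifitm1, Xaf1 and Zbp1 were 0.33, -0.21 and -0.17. All 5 erythroid markers were higher without overlap in libraries labelled αD KO (summed to 1701 to 3102 CPM against 83.1 to 874.9 CPM), as was S100a9 (14588 to 33264 CPM against 11279 to 13336 CPM). Csf1r (194.7 to 419.7 CPM against 443.6 to 717.9 CPM) and 3 of the 6 B cell markers were lower without overlap. The part of these markers in the differences was not tested.

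In lung at 12h, edgeR and DESeq2 gave different calls. None of the 43 genes tested was a DEG by edgeR (0.0% of all 16764 genes), but 11 had an unadjusted p under 0.05, all of them higher in libraries labelled αD KO, where 8.29% of all genes were under 0.05. DESeq2 called Ifit3, Ifit3b and Oasl2 higher, where it called 1.4% of all genes. In 6 genes (Cmpk2, Gbp3, Gbp7, Herc6, Igtp and Oasl2) every library labelled αD KO was above every WT library, where 4.53% of all genes were so placed, and in 1 (Ifitm6) every one was below, where 5.49% were. The median of the set was 0.54, against 0.13 for all genes, and 0.93 with total counts, which moved the median of all genes by 0.31.

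Oasl2 was 56.2, 101.5 and 57.1 CPM in WT lung 12h and 545.1, 130.4 and 924.3 CPM in αD KO lung 12h, a log2 fold change of 2.92 ± 0.73 (adjusted p = 0.598, edgeR). Ifit3b was 8.88, 5.92 and 21.2 CPM in WT and 104.7, 19.4 and 113.1 CPM in αD KO, a log2 fold change of 2.90 ± 0.69. Ifit3 (2.69 ± 0.72), Gbp7 (1.92 ± 0.52) and Igtp (1.69 ± 0.48) were next, with the same adjusted p. Markers differed between these groups too. Csf1r was 151.0 to 233.1 CPM in WT and 271.4 to 646.8 CPM in αD KO, Ly6c2 was 304.0 to 683.0 CPM and 144.6 to 276.4 CPM, and Itgam was 603.2 to 1398 CPM and 337.1 to 410.6 CPM, while the summed neutrophil markers (77106 to 135830 CPM and 50725 to 85955 CPM) and the summed monocyte and macrophage markers (561.2 to 886.9 CPM and 614.2 to 990.3 CPM) overlapped. The part of these markers in the difference was not tested. Within αD KO lung 12h, library 1b was nearest to WT in each of these 5 genes, and libraries 1a and 2 were those that lay near the 0h end of the time line. Without those, a single αD KO library was left, Oasl2 had a log2 fold change of 1.11, Ifit3b of 1.02 and Ifit3 of 0.76. The median of the set was then 0.24. Libraries 1a and 2 were left out for lying far from WT lung 12h, which favours a smaller difference from WT. These values are therefore a description and no test. Without the libraries 1b, which leaves only those 2 in the αD KO group, 16 genes of the set were DEGs (13 higher, 3 lower), where 30.1% of all genes were.

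The interaction of genotype and time in lung called none of the 45 genes by edgeR (0.0% of all 23211 genes), with 8 at an unadjusted p under 0.05, where 10.5% of all genes were. DESeq2 called 5, Igtp, Oasl2, Gbp7 and Ifit3b with a positive and Ifitm6 with a negative difference, where it called 2.7% of all genes. By edgeR the difference of changes was 2.48 ± 0.59 for Igtp, 3.51 ± 0.92 for Oasl2, 2.33 ± 0.65 for Gbp7, 2.94 ± 0.92 for Ifit3b and -4.68 ± 1.56 for Ifitm6, with an adjusted p of 0.41 each. Without the 3 libraries that went against their labels, the same differences were 1.31, 1.34, 1.13, 0.93 and -1.46. A single αD KO lung library after CLP was then left. The 3 were left out for their position between the WT lung times, which favours a smaller difference of changes between the genotype labels. These values are therefore a description and no test.

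Lung and blood were compared within each genotype and time. No gene of the set was a DEG by edgeR in any of the 4 comparisons. At 0h, WT lung over WT blood had a median of -0.11 over 44 genes, against -0.08 for all 15967 genes, of which 0.0% were DEGs, with no gene of the set at an unadjusted p under 0.05 and none called by DESeq2. The libraries overlapped in every gene of the set, where 3.53% of all genes had every lung library above and 2.15% every one below. The 5 smallest p belonged to Slfn5 (0.47 ± 0.21), Trim30a (0.58 ± 0.30), Oas1a (-0.75 ± 0.50), Gbp3 (-0.34 ± 0.30) and Cmpk2 (-0.48 ± 0.43). At 12h, WT lung over WT blood had a median of -0.11 over 42 genes, against 0.03 for all 13590 genes, of which 0.0442% were DEGs, and 2 genes had an unadjusted p under 0.05, as had 18.1% of all genes. Irf1 was 214.0, 157.6 and 202.5 CPM in WT blood 12h and 695.6, 158.7 and 1017 CPM in WT lung 12h, a log2 fold change of 1.66 ± 0.50 (adjusted p = 0.167, edgeR), and DESeq2 called it, where it called 7.23% of all genes. Eif2ak2 (-1.33 ± 0.57), Ifitm6 (-1.05 ± 0.47), Igtp (-1.05 ± 0.48) and Ifnar2 (0.62 ± 0.33) followed. Every lung library was below every blood library in Ifitm6 alone, where 16.3% of all genes were so placed, and above in no gene of the set, where 6.09% were. Markers of lung structural cells were 61.8 to 210 CPM in WT lung 0h and 20.2 to 282.0 CPM in WT blood 0h, summed over 10 genes, and 117.1 to 375.0 CPM and 16.0 to 18.4 CPM at 12h, when 8 of the 10 were higher in lung without overlap. Of the 5 platelet markers 4 were lower in lung at 0h, and of the 8 neutrophil markers Cxcr2 and Mmp8 were lower in lung at 12h, without overlap. How far these markers bear on the differences was not tested.

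In libraries labelled αD KO at 0h, lung over blood had a median of 0.35 over 45 genes, against 0.03 for all 19000 genes, of which 0.0% were DEGs. It was -0.08 without lung library 2. By edgeR 1 gene of the set had an unadjusted p under 0.05, as had 2.91% of all genes, and DESeq2 called none. The libraries overlapped in every gene of the set, where 3.11% of all genes had every lung library above and 3.51% every one below. Gbp2 (1.55 ± 0.62), Ifih1 (0.92 ± 0.51), Ifit1 (1.14 ± 0.67), Ifitm6 (1.92 ± 1.16) and Parp14 (0.75 ± 0.45) were the first 5, with adjusted p of 1.0. At 12h the median was 0.08 over 44 genes, against 0.07 for all 14592 genes, of which 0.0548% were DEGs, and 7 genes of the set had an unadjusted p under 0.05, as had 22.2% of all genes. Oasl2 (2.43 ± 0.68, adjusted p = 0.116, edgeR), Ifit3b (2.18 ± 0.68), Ifi44 (3.73 ± 1.25), Xaf1 (-1.20 ± 0.44) and Ifit3 (1.77 ± 0.74) came first, and DESeq2 called Oasl2, Ifit3b and Ifi44, where it called 7.35% of all genes. The value of Ifi44 rests on 7 counts summed over the blood libraries and 115 over the lung libraries. Every lung library was above every blood library in Ifi44, where 10.3% of all genes were so placed, and below in 3 genes of the set, where 18.4% were. Without lung libraries 1a and 2, left out for their position on the time line, library 1b alone stood for lung and the median was -0.44. The lung structural markers summed to 178.0 to 1138 CPM in lung and 21.0 to 35.6 CPM in blood at 0h and to 54.4 to 214.4 CPM and 7.43 to 25.7 CPM at 12h, with 9 and 7 of the 10 higher in lung without overlap. At 0h, 4 of the 5 platelet markers and 3 of the 9 monocyte and macrophage markers were lower in lung without overlap. At 12h, 4 of the 8 neutrophil markers were lower (the 8 summed to 50725 to 85955 CPM in lung and 118756 to 144041 CPM in blood), and of the monocyte and macrophage markers 4 were higher and Ly6c2 was lower. The part of these markers in the differences was not tested.

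Other genes of the pathway were followed in a list of 65 that holds no gene of the set. The interferon genes themselves were close to undetected. Over all 24 libraries Ifnb1 had 52 counts, Ifna1 11, Ifna2 15, Ifna4 25, Ifnl2 23 and Ifnl3 66, and of the 188 counts of Ifng 157 were in αD KO blood 0h library 2, the library with more lymphocyte RNA. None of the 7 ligand genes passed the filter in any comparison.

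Of the 65, 6 of 53 tested were DEGs in WT blood at 12h (4 higher, 2 lower), 7 of 58 in WT lung (4 higher, 3 lower), 4 of 53 in αD KO blood (1 higher, 3 lower), where 13.5%, 9.02% and 8.75% of all genes were, and none in αD KO lung or in any genotype or tissue comparison. Ikbke, which encodes the kinase IKKε that activates IRF3 and IRF7, was 4.06, 1.89 and 4.0 CPM in WT blood 0h and 617.4, 53.7 and 861.2 CPM in WT blood 12h. It rose by 6.97 ± 0.98 in WT blood (adjusted p = 0.00589), by 7.77 ± 0.84 in WT lung (adjusted p = 0.00492) and by 5.66 ± 0.65 in αD KO blood (adjusted p = 0.00393, edgeR). Tlr7, an endosomal receptor of single-stranded RNA, rose by 2.20 ± 0.42 in WT blood and 2.93 ± 0.47 in WT lung (adjusted p = 0.0165 and 0.0134, edgeR). Ticam1, the adaptor TRIF of the endosomal receptor TLR3, rose by 1.82 ± 0.40 in WT blood (adjusted p = 0.0241, edgeR). Mavs, the adaptor of the cytosolic RNA sensors, fell by 2.45 in WT blood and by 4.21 in αD KO blood (adjusted p = 0.0355 and 0.0196, edgeR). It was 3.06 to 10.2 CPM in WT blood 0h and 0.803 to 1.53 CPM in WT blood 12h. In αD KO blood 0h it was 7.28, 2.53 and 13.2 CPM, highest in library 2, the library with more lymphocyte RNA. In αD KO blood 12h Mavs was near the floor, at 0.214, 0.716 and 0.429 CPM.

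Among other induced genes, Ifi27l2a fell by 3.86 in WT blood (adjusted p = 0.0178) and by 2.67 in αD KO blood (adjusted p = 0.0361), Trim30d fell by 1.77 in WT lung (adjusted p = 0.0411) and by 1.76 in αD KO blood (adjusted p = 0.0341), and Irgm2, which overlaps Igtp, fell by 2.5 in WT lung (adjusted p = 0.0241, edgeR). In the opposite direction, Slfn4 rose by 1.82 ± 0.45 in WT blood (adjusted p = 0.0354, edgeR), and Pml rose by 2.18 ± 0.46 in WT lung (adjusted p = 0.0277, edgeR).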

How the data were processed

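RNA of sorted neutrophils was amplified with SMART-Seq v4 and made into Nextera XT libraries. Per the submitters' processing notes, the authors trimmed reads with Trimmomatic 0.36 and aligned them with STAR 2.5.2b to GRCm38 (mm10). The deposited values are raw counts per gene of uniquely mapped reads in exons. The counting tool and its strand setting are not given in the sources used here, and 18 of the 45 genes overlap another annotated gene, so reads of overlapping genes may not be separable. Totals were 5753476 to 29984954 counts per library.

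Samples were grouped by the labels, and the 3 files of a group were treated as 3 libraries (1a, 1b and 2). Each comparison was fitted to its own libraries with the quasi-likelihood F test of edgeR 4.0.16 (R 4.3.3) after TMM normalization and filterByExpr, and p-values were adjusted over all genes tested by the Benjamini-Hochberg method. A call needs an adjusted p below 0.05 with a log2 fold change of more than 1 in size, or the adjusted p alone for an interaction. SEs are the absolute log2 fold change over the square root of F. CPM values use TMM-scaled library sizes. The script was tested on simulated data. Alternatives were DESeq2 1.42.0, RLE factors, other filters, all 8 groups in 1 fit, the files of the first sample summed, each library left out, the libraries 1b left out and a replicate block. Total counts without scaling factors and leaving out 3 lung libraries were chosen after seeing the data.

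The library number was checked as a pairing by correlating deviations from the group means. Every pair was over 0.1 in WT blood 12h against 0h (0.114 to 0.588), αD KO lung 12h against 0h (0.173 to 0.413), αD KO against WT blood 0h (0.234 to 0.748) and lung against blood at 12h in WT (0.178 to 0.328) and αD KO (0.148 to 0.342). The numbers were used only in the fits with a replicate block, and the main p-values and calls of every comparison are unpaired. The labels do not say what a shared number stands for.

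Genes named are those called in a comparison, or the 5 of smallest p where fewer were called, a fixed list of 15 whose levels are given, Itgad, and up to 5 called pathway genes per comparison. One pathway gene of that rule is not reported here. The members and lists were chosen with earlier results of these data known.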

Additional observations from a re-analysis of the deposited data

How the results depend on the processing

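No result changed sign while called. The counts of genes of the set called as DEGs moved as follows, with the share of all genes called under the same setting in parentheses. In WT blood at 12h there were 4 (13.5%), and 7 with DESeq2 (22.8%), 8 with at least 10 counts in every library (24.9%), 10 with the files of sample 1 summed (15.9%) and 11 without the libraries 1b (23.1%). In WT lung at 12h there were 6 (9.02%), and 15 with DESeq2 (17.6%), 1 with all 8 groups in 1 fit (1.65%), 11 with at least 10 counts (15.5%), 15 with the files summed (12.3%), 17 with total counts (12.6%) and 16 without the libraries 1b (37.2%), and total counts moved the median change to -0.82. In αD KO blood at 12h there were 3 (8.75%), and 6 with DESeq2 (12.3%), 0 with all 8 groups (0.236%), 1 with the files summed (3.84%), 6 with no filter (4.05%) and 1 without the libraries 1b (11%). In αD KO lung at 12h there was 1 without the 3 libraries that went against their labels (1.41%), a choice that favours a time difference. Between genotype labels, no filter gave 2 in blood at 12h (0.207%) and 2 in lung at 12h (0.489%), where DESeq2 gave 3 (1.4%) and the fit without the libraries 1b gave 16 (30.1%). For lung against blood at 12h, WT had 1 with DESeq2 (7.23%), 1 with the files summed (4.47%) and 9 without the libraries 1b (28.2%), and αD KO had 3 (7.35%), 2 (8.27%) and 8 (34.3%), with 5 under no filter (3.13%). The interaction in lung had 5 with DESeq2 (2.7%) and 6 without the libraries 1b (13.2%). Total counts moved the median of all genes by -0.42 in WT blood, -0.59 in WT lung and -0.38 in αD KO blood at 12h, and the direction of each called gene of the set stayed as given. The median correlation within the set was 0.36 with RLE factors. The causes were not tested.

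When each library was left out in turn, the count was 0 to 5 in WT blood (0.00999% to 18.4% of all genes), 0 to 15 in WT lung (0.0% to 25.3%), 0 to 2 in αD KO blood (0.456% to 8.74%), 0 to 3 for lung against blood at 12h in WT (0.0% to 20.2%) and 0 to 4 in αD KO (0.0% to 11.2%), where the 3 and the 4 came without WT and αD KO lung 12h library 1b. The median change ranged from -0.65 to -0.03 in WT lung and from -0.07 to 0.87 for the interaction in lung. With 3 libraries a group, counts near the threshold are not firmly placed, and values of genes with few counts (Mx1, Mx2 and Ifi44) are imprecise.

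With the replicate block, the count was 11 in WT blood (18.4% of all genes), where the pairing check passed, and 7 in αD KO blood (10.7% of all genes), where it did not and the libraries share only a number. The block moved no other count of calls by more than 1.5 times.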
